A study of Mus musculus with 9 samples.

Results

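Genes for 8 ATP-binding cassette (ABC) exporters of drugs and conjugates, Abcb1a, Abcg2, Abcc1, Abcc2, Abcc3, Abcc4, Abcc5 and Abcc6, were followed along the small intestine of mice. They were chosen by name out of 18193 genes on the arrays, and the brightest of a gene's probe sets, groups of short probes to 1 transcript, stood for it. The mice were male C57BL/6J, aged 9 weeks when the diets began. For 2 weeks they had eaten a high-fat diet whose fat source was palm oil in the HF-PO group, olive oil in the HF-OO group and safflower oil in the HF-SO group. The small intestine was divided into 3 equal parts, SI1 next to the stomach, SI2 in the middle and SI3 at the distal end, and the mucosa was scraped off for RNA. Each diet group had 6 mice, whose RNA was combined by segment and put on 1 Affymetrix expression array, which gave 9 arrays. A segment is therefore measured in 3 pools that differ in diet, and a diet in a segment is measured once. All groups ate a high-fat diet, and a low-fat group was not analysed here.

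ABC exporters use ATP to push compounds out of cells. In the gut epithelium, Abcb1a (P-glycoprotein), Abcg2 (BCRP) and Abcc2 (MRP2) sit in the apical membrane and return drugs, toxins and conjugates to the lumen, whereas Abcc3 (MRP3) sits in the basolateral membrane and passes glucuronides and bile acids towards the blood. Abcc1 (MRP1) exports glutathione conjugates and leukotrienes, Abcc4 (MRP4) and Abcc5 (MRP5) export nucleotide analogues and cyclic nucleotides, and Abcc6 (MRP6) is known for the ATP release from liver that restrains calcification. Mice have Abcb1a and Abcb1b where humans have a single gene.

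The labelled tissue was checked on 9 enterocyte markers. The dimmest had a mean signal of 1.03e+04. Between SI1 and SI3 2 of the 9 rose and 4 fell, where 25.2% of all genes tested were higher and 20.4% lower. The brush border protein Vil1 stood at a MAS5 signal of 27567 ± 2736 in SI1 against 32388 ± 1255 in SI3 (SD, n = 3 pools), the unit of all signals that follow. Treh, the brush border trehalase, had the largest fall, from 15118 ± 398 to 4445 ± 1416, so it remained bright distally. The median signal of an array was 94.4 to 106, and the precision of every value is limited by the number of arrays. Because the tissue was bulk mucosa, fewer cells of a type and less RNA per cell cannot be told apart. The 3 pools of a segment are separate mice, but they differ in diet. Diet pool was a term in the model, so p-values measure how far segment differences vary from pool to pool, across diets.

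Toward the distal end the exporters divided. Abcb1a and Abcg2 rose, by 2.08-fold and 1.54-fold from SI1 to SI3, while Abcc3 and Abcc2 fell, by 3.35-fold and 3.04-fold. Abcc1 rose and Abcc4 fell by smaller amounts at low signals, Abcc6 was highest in the middle, and Abcc5 passed no test. All 8 genes passed the filter on low values, so all were tested. Between SI3 and SI1, 3 of the 8 were higher and 3 lower at an adjusted p under 0.05 from limma, where 25.2% of the 10977 genes tested were higher and 20.4% lower. The median log2 difference was -0.03 over the 8 and 0.07 over all genes tested. By the F test over the 3 segments, 5 of the 8 differed (Abcb1a, Abcg2, Abcc2, Abcc3 and Abcc6), where 42.0% of all genes did. Changes along the gut were thus common among all genes, and the counts of members are to be read against those shares. Between SI3 and SI1 the arrays did not overlap for 3 members that were higher (Abcb1a, Abcg2 and Abcc1; 32.8% of all genes) and 3 that were lower (Abcc2, Abcc3 and Abcc4; 25.2%). Such gaps were also common at single steps. Every SI2 array was above every SI1 array in 20.3% of all genes and below in 18.3%. For SI3 against SI2 these shares were 25.1% and 19.9%, and gaps described below are to be read against them.

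**Figure D1:**
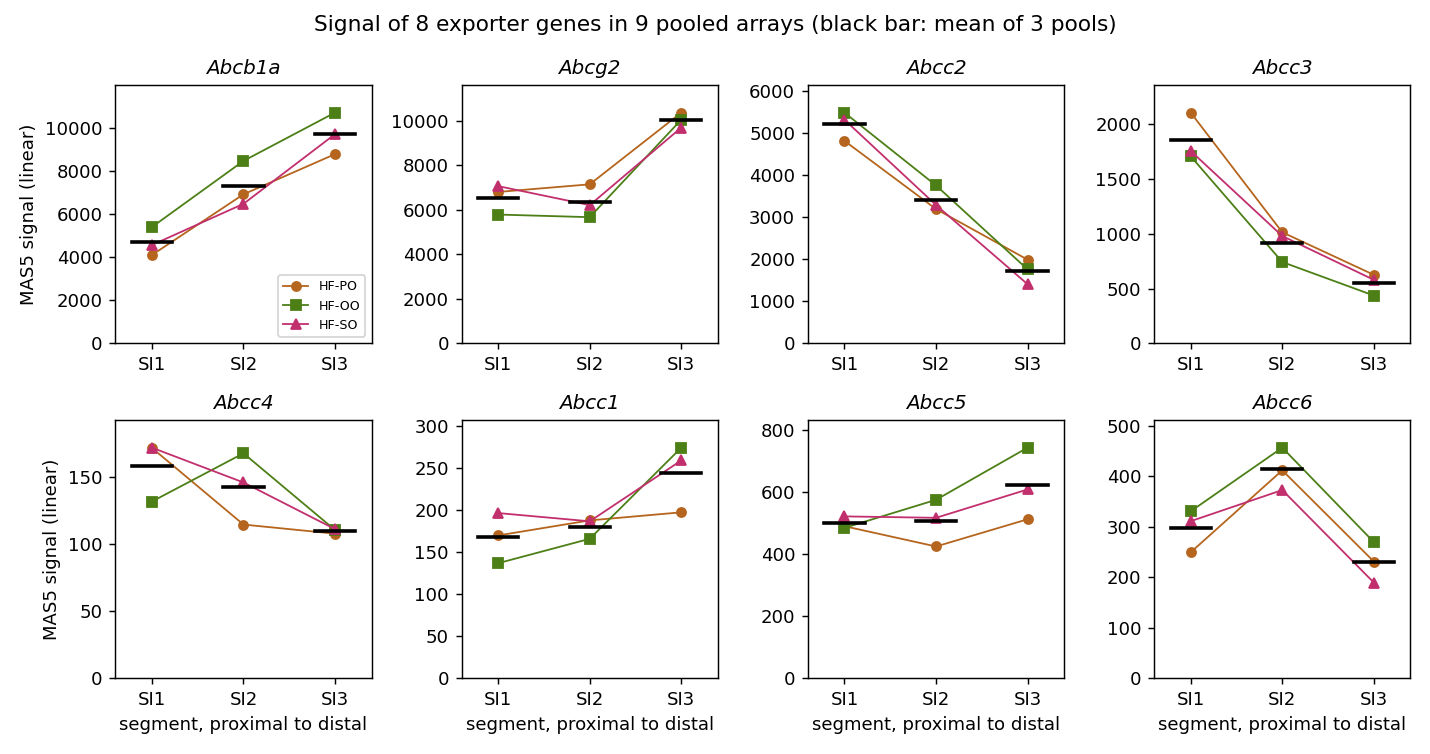
MAS5 signal (linear scale from 0) of the 8 genes in SI1, SI2 and SI3, 1 line per diet pool and a black bar at the mean of the 3 pools. Abcb1a and Abcg2 are higher in every SI3 array than in any SI1 array, Abcc2 and Abcc3 step down at each segment, and Abcc6 is highest in SI2 in each pool.

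Promoter windows of Abcb1a and Abcc2, apical exporters that moved in opposite directions, are shown so that their sequence can be set beside the values below. Each runs from 250 bases before to 50 after 1 annotated start site of the gene, from RefSeq's GRCm38.p6. Both are on the plus strand, at chr5:8566841-8567140 for Abcb1a and chr19:43782058-43782357 for Abcc2. Capitals mark matches on either strand to 6 short motifs: CCAAT (the CCAAT box), GGGCGG (the GC box), AGGTCA (a half-site of nuclear receptors), GATAA (the core of GATA sites), TTTAT (the core of Cdx sites) and GCGTG (the core of aryl hydrocarbon receptor sites). Matches of GATAA and TTTAT can overlap on opposite strands.
Abcb1a: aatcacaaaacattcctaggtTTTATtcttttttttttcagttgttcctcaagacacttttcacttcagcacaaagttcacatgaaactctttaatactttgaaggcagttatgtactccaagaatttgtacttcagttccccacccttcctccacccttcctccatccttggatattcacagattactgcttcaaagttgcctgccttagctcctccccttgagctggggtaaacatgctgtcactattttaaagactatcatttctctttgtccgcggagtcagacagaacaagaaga
Abcc2: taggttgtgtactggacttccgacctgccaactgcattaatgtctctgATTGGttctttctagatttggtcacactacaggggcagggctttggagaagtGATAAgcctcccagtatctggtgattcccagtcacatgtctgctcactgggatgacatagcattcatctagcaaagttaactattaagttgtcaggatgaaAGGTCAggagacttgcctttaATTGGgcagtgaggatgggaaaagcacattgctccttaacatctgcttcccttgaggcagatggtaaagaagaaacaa
The Abcb1a window held 1 match, to TTTAT, which 40.0% of the 32851 promoter windows of that length hold. The Abcc2 window held 2 matches to CCAAT (37.4% of windows hold at least 1), 1 to GATAA (25.4%) and 1 to AGGTCA (16.3%). Neither held GGGCGG (35.7%) or GCGTG (32.4%). These are matches of letters in 1 window, not sites of binding. Of the 8 genes, 5 have a window in the table, with 8 windows among them, since a gene can have several start sites. Whether the start sites shown are those used in this mucosa was not tested.

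Abcb1a encodes P-glycoprotein, the pump that limits uptake of many drugs. Its signals in SI1 were 4095 with HF-PO, 5394 with HF-OO and 4560 with HF-SO. In SI2 they were 6916, 8468 and 6474 in the same order, and in SI3 they were 8784, 10712 and 9712. Every SI2 array was above every SI1 array, and every SI3 array above every SI2 array. The rise from SI1 to SI3 was 1.06 on the log2 scale (SE 0.09, adjusted p = 0.000167, limma), with 1.10, 0.99 and 1.09 in the HF-PO, HF-OO and HF-SO pools. The step from SI1 to SI2 was 0.64 (SE 0.09, adjusted p = 0.00662) and that from SI2 to SI3 was 0.42 (SE 0.09, adjusted p = 0.0185). Between SI2 and SI1, 2 of the 8 members were higher (Abcb1a and Abcc6) and 2 lower (Abcc2 and Abcc3), where 7.23% of all genes were higher and 7.83% lower.

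The other Abcb1a probe set gave a smaller rise, 0.59 (SE 0.10, adjusted p = 0.00377) from SI1 to SI3, with 0.50 by SI2 and 0.09 after it (adjusted p = 0.578, 95% interval -0.15 to 0.33). Its means were 4744 ± 862, 6673 ± 596 and 7105 ± 690 (SD, n = 3 pools). The probe sets therefore share the rise by SI2 and differ over the step to SI3. With any of the 3 pools left out the rise to SI3 passed, but the step to SI2 did not (adjusted p from 0.0503 to 0.0816), nor the step from SI2 to SI3 (0.0698 to 0.132). The step from SI2 to SI3 had an adjusted p = 0.0577 without the diet pool as a block and 0.0732 on the mean of both probe sets.

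Abcg2 encodes BCRP, an apical pump for drugs, dietary toxins, sulfates and urate. Its signals in SI1 were 6799 with HF-PO, 5783 with HF-OO and 7061 with HF-SO, and in SI2 they were 7142, 5665 and 6206. The SI1 and SI2 arrays overlapped. In SI3 the signals were 10366, 10051 and 9694, each above all 6 others. The step from SI2 to SI3 was 0.67 (SE 0.10, adjusted p = 0.00482), a 1.59-fold rise, with 0.54, 0.83 and 0.64 in the 3 pools. From SI1 to SI2 the difference was -0.05 (adjusted p = 0.781), with a 95% interval from -0.28 to 0.19. Across the whole length Abcg2 rose by 0.62 (SE 0.10, adjusted p = 0.00268), a call that held without any single pool. The step from SI2 to SI3 had an adjusted p = 0.0685 without the HF-OO pool. Between SI3 and SI2, 2 members were higher, Abcb1a and Abcg2, and 3 lower, Abcc2, Abcc3 and Abcc6, where 11.5% of all genes were higher and 11.9% lower.

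Abcc2 encodes MRP2, the apical pump for glucuronides, glutathione conjugates and sulfates. It went the other way from the other apical pumps. Its signals were 4806 with HF-PO, 5476 with HF-OO and 5308 with HF-SO in SI1, 3186, 3747 and 3281 in SI2, and 1984, 1752 and 1400 in SI3. No 2 segments overlapped. From SI1 to SI3 Abcc2 fell by 1.61 (SE 0.13, adjusted p = 0.000144), from a mean of 5197 ± 348 to 1712 ± 294 (SD, n = 3 pools). The pools gave -1.27 with HF-PO, -1.64 with HF-OO and -1.91 with HF-SO. At the first step it fell by 0.61 (adjusted p = 0.0257) and at the second it fell by 1.00 (adjusted p = 0.00301). SI2 differed from the mean of the ends by 0.19 and did not pass (adjusted p = 0.385, 95% interval -0.08 to 0.46). The step to SI2 did not pass with any pool left out (adjusted p from 0.0657 to 0.14), and the step to SI3 did not pass without the HF-OO pool (0.054).

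Abcc3 encodes MRP3, the basolateral pump for glucuronides and bile acids. Its signals in SI1 were 2108 with HF-PO, 1709 with HF-OO and 1757 with HF-SO. In SI2 they were 1014, 742.1 and 979.9, and in SI3 625, 435.5 and 579.1. Every SI2 array was below every SI1 array, and every SI3 array below every SI2 array. The fall from SI1 to SI3 was the steepest of the 8, at -1.75 (SE 0.10, adjusted p = 3.19e-05), from a mean of 1858 ± 217 to 547 ± 98.9 (SD, n = 3 pools). The first step was -1.02 (adjusted p = 0.00157) and the second -0.72 (adjusted p = 0.00343). The pools lay close together, at -1.73, -1.93 and -1.57 over the whole length, and all 3 calls held with each pool left out and under every other alternative run.

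Abcc4, which exports nucleotide analogues and prostaglandins, was dim. Its signals were 171.3 with HF-PO, 131.4 with HF-OO and 171.5 with HF-SO in SI1, 114.3, 167.3 and 145.6 in SI2, and 107.5, 110.2 and 110.9 in SI3. The SI3 arrays lay close together and below all others, while SI1 and SI2 overlapped. From SI1 to SI3 it fell by 0.46 (SE 0.15, adjusted p = 0.0431), and neither step passed alone. The adjusted p was 0.116 without the HF-PO pool, 0.203 without the HF-SO pool and 0.0505 after quantile normalization.

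Abcc1, the exporter of glutathione conjugates and leukotriene C4, rose by 0.50 from SI1 to SI3 (SE 0.15, adjusted p = 0.0312). Its signals were 169.8, 136.8 and 196.4 in SI1 with HF-PO, HF-OO and HF-SO, 187.7, 165.8 and 186.6 in SI2, and 197.3, 274.2 and 259 in SI3. The lowest SI3 array, HF-PO, was within 1 signal unit of the highest SI1 array, and the pools gave 0.20, 0.93 and 0.37. Without the HF-OO pool the change was 0.29 (adjusted p = 0.195), and without the HF-SO pool the adjusted p was 0.096. The dimmer Abcc1 probe set, whose mean was 90.1 ± 23.8 in SI1 against 102 ± 8.22 in SI3 (SD, n = 3 pools), did not pass (0.18, adjusted p = 0.402).

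Abcc5, an exporter of cyclic nucleotides and haem, passed no segment test. Its signals were 489 with HF-PO, 483.6 with HF-OO and 520.6 with HF-SO in SI1, 423.8, 573.9 and 516 in SI2, and 511.3, 741.7 and 607.3 in SI3. The difference between SI3 and SI1 was 0.29 (adjusted p = 0.0817, 95% interval 0.02 to 0.57). Of its 10 probe sets, 5 were tested; none of the others passed between SI3 and SI1, and they ranged from -0.22 to 0.19. With a filter at the upper quartile of mean signal, which tests fewer probe sets, its adjusted p was 0.0353.

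Abcc6, whose product is known for ATP release from hepatocytes, was the one member with a peak in the middle. Its signals were 249.4 with HF-PO, 330.7 with HF-OO and 311.1 with HF-SO in SI1, 411.9, 456.8 and 372.8 in SI2, and 231.1, 269.6 and 189.4 in SI3. Every SI2 array exceeded every SI1 and SI3 array, and SI1 and SI3 overlapped. Between the ends its difference was -0.35 (adjusted p = 0.0508, 95% interval -0.64 to -0.07), and it passed with each array centred on its median (0.0356), after quantile normalization (0.0498), with a pseudocount of 64 (0.0482) and on the mean over all probe sets of a gene (0.0446). SI2 was 0.64 above the mean of the ends (SE 0.10, adjusted p = 0.025), and 1 member of 8 was higher and 0 lower by this test, where 2.50% of all genes were higher and 1.73% lower. For Abcg2 the same test gave -0.36 (adjusted p = 0.0729), which passed with a pseudocount of 64 (0.0489) and with the upper-quartile filter (0.0157). The step from SI2 to SI3 was -0.81 (SE 0.12, adjusted p = 0.00477), and SI2 was 0.46 above SI1 (SE 0.12, adjusted p = 0.0457). The peak did not pass with any pool left out (adjusted p from 0.12 to 0.197), and the same held for the rise to SI2 (0.0797 to 0.201), which also missed the threshold after quantile normalization (0.0674) and without the block (0.0627). The step from SI2 to SI3 did not pass without the HF-OO pool (0.0562).

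**Figure D2:**
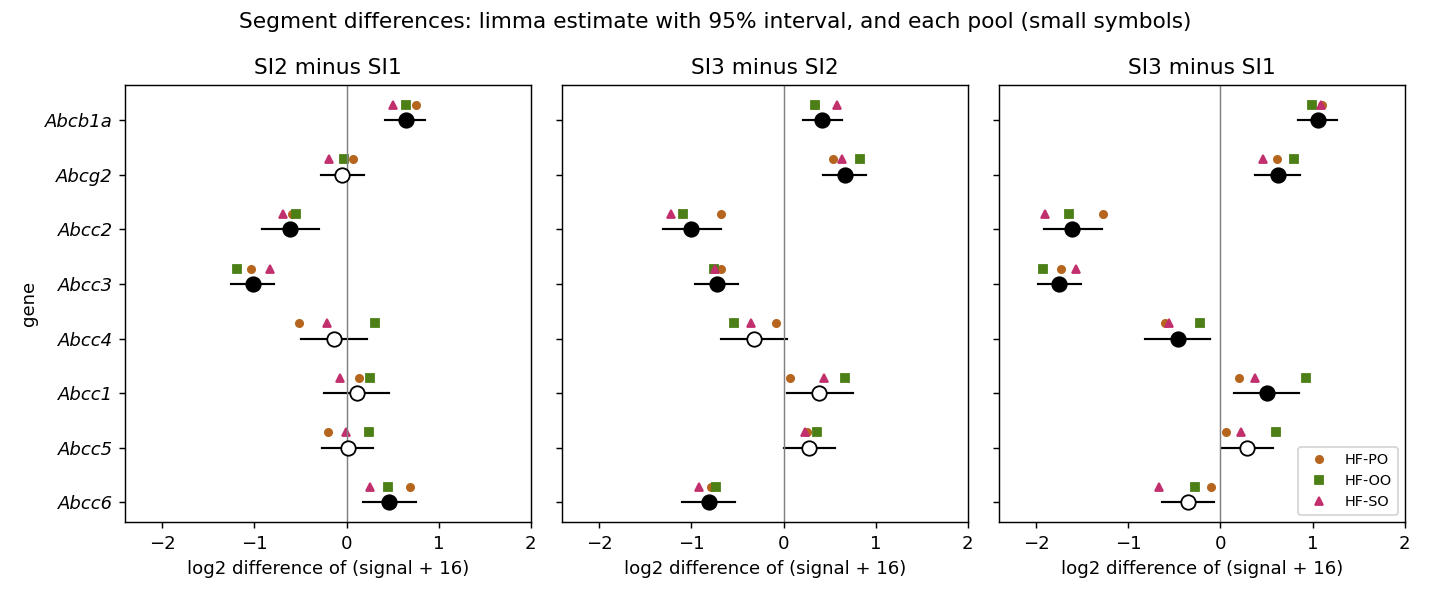
Log2 differences of signal + 16 between segments for the 8 genes. Large circles give limma's estimate with its 95% interval over 3 pools, filled where the adjusted p is under 0.05, and small symbols give each diet pool; Abcb1a and Abcg2 lie right of 0 in SI3 minus SI1, at 1.06 and 0.62, and Abcc2 and Abcc3 left, at -1.61 and -1.75.

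Over all 19 probe sets of the 8 genes, 14 passed the filter on low values, and the 5 below it were all of Abcc5. Abcg2, Abcc2, Abcc3, Abcc4 and Abcc6 had a single probe set each, so they have no second measurement on the array. Those of Abcb1a pointed the same way, as did those of Abcc1 in sign, while the tested probe sets of Abcc5 fell on both sides of 0.

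**Figure D3:**
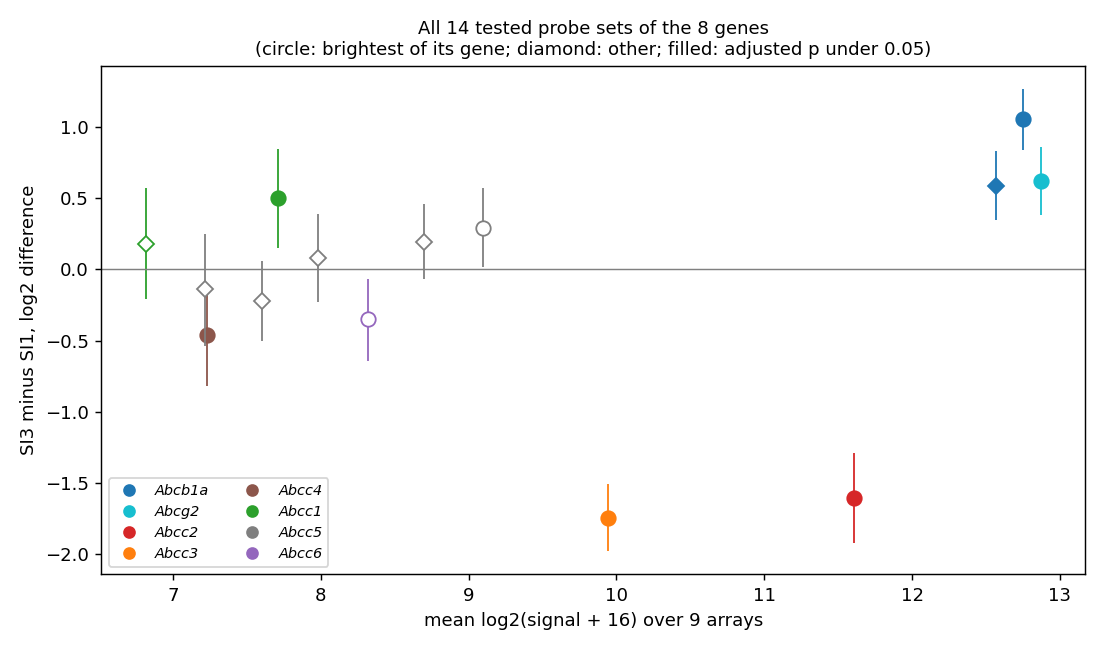
SI3 minus SI1 log2 difference, with 95% interval, against mean log2(signal + 16) for the 14 tested probe sets. Circles are the brightest of a gene, diamonds the others, filled where the adjusted p is under 0.05; the bright genes Abcb1a, Abcg2, Abcc2 and Abcc3 carry the changes furthest from 0, and the Abcc5 points lie between -0.22 and 0.29.

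The gene whose profile over the 9 arrays was most like that of Abcb1a is its neighbour. Likeness was the root mean square difference of log2(signal + 16) after each gene was centred on its own mean, a description with no test, given for the 5 members that passed the F test. Rundc3b, which encodes a RUN domain protein, differed from Abcb1a by 0.07, where the median gene differed by 0.47. In RefSeq (GRCm38.p6) Rundc3b lies on the opposite strand and its span overlaps that of Abcb1a. Its signals were 846.8 with HF-PO, 1092 with HF-OO and 1016 with HF-SO in SI1, 1467, 1701 and 1483 in SI2, and 1708, 2209 and 1954 in SI3. It rose by 0.98 from SI1 to SI3 (SE 0.09, adjusted p = 0.000189), against 1.06 for Abcb1a, and its HF-OO array was the highest in each segment, as for Abcb1a. Both likenesses follow from the choice of Rundc3b by its profile over these same 9 arrays and add no separate support. Whether probes of one gene also read transcripts of the other was not tested. The gene on the other side, Abcb1b, was below the filter, with means of 86.7, 103 and 106 in SI1, SI2 and SI3. Next for Abcb1a came Ramp1, a subunit of peptide hormone receptors (0.09), and Dpep1, a membrane dipeptidase that trims glutathione conjugates (0.11).

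The nearest profiles to Abcg2 were Nol4l (0.06), 2700097O09Rik (0.08) and Erg28, a protein of sterol synthesis (0.08), where the median gene differed by 0.36. Nol4l stood at 1293 ± 131, 1331 ± 146 and 2023 ± 145 in SI1, SI2 and SI3 (SD, n = 3 pools). Abcc2 was most like D5Ertd579e (0.09), Bpnt1, a phosphatase that clears a by-product of sulfation (0.11), and Bco2, which cleaves carotenoids (0.11), against a median of 0.73. Bpnt1 fell from 15068 ± 756 to 4889 ± 451, as part of this choice by likeness. Abcc3 was most like Igtp, an interferon-inducible GTPase (0.16), the endothelin receptor Ednrb (0.16) and Oasl2, another interferon-induced gene (0.17), against a median of 0.79. Abcc6 was most like the lectin gene Clec2e (0.12), the receptor kinase Epha1 (0.12) and the reductase Ptgr1 (0.13), against 0.45.

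Of 30 tested genes that attach glutathione, glucuronate or sulfate or make the donors of these groups, 22 fell from SI1 to SI3 and 2 rose, with a median of -0.98 against 0.07 over all genes tested and the shares of 20.4% lower and 25.2% higher given above. The glutathione transferase genes Gsta2, Gstm6 and Gsta4 fell, with -3.96, -3.63 and -3.23, and Papss1, which makes the sulfate donor, and Mgst1 rose by 1.48 and 0.52. Papss2, which makes the same donor and was picked after its values were seen, fell by 2.33. Its mean signal went from 25184 in SI1 to 5011 in SI3, against 1422 and 4013 for Papss1. By SI2, 11 had fallen and 2 had risen, where 7.83% of all genes tested were lower and 7.23% higher. Genes for making and turning over glutathione, the co-substrate of Abcc1 and Abcc2, were mixed, with 6 of 14 higher, 5 lower and a median of 0.29. The peroxidase Gpx2 rose by 1.89, Dpep1 by 1.09 and the reductase Gsr by 0.90, while Chac2, a glutathione-degrading enzyme, fell by 1.52, the peroxidase Gpx4 by 0.69 and Gclm, a subunit of the first enzyme of glutathione synthesis, by 0.53.

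Among 20 tested transcription factors known to act on exporter genes, 10 fell from SI1 to SI3 and 4 rose, with a median of -0.28. For every list in this paragraph, the shares over all genes tested were 20.4% lower and 25.2% higher. The drug-sensing receptor Nr1i3 (CAR), Gata4 and Pparg fell, with -1.91, -1.79 and -1.79. The bile acid receptor Nr1h4 rose by 1.95, Nr5a2 by 0.96 and the glucocorticoid receptor Nr3c1 by 0.66. Some textbook regulators of these exporters outside that naming rule were picked after their values were seen: the aryl hydrocarbon receptor Ahr fell by 1.35, the oxidant sensor Nfe2l2 (Nrf2) by 0.92 and the pregnane X receptor Nr1i2 by 0.34, whereas Hnf4a rose by 0.47. Of 11 tested targets of the aryl hydrocarbon receptor, PXR and CAR, 8 fell and 2 rose, with a median of -0.85, led by Cyp1a1 at -4.61, Cyp2c29 at -4.50 and Cyp2b10 at -2.41 and, upward, the carboxylesterase Ces2a at 0.94 and Cyp2c55 at 0.61. Of 13 tested Nrf2 targets, 7 fell and 3 rose (median -0.28): Gsta4, the epoxide hydrolase Ephx1 and the malic enzyme Me1 fell, with -3.23, -2.89 and -2.54, and Gsr, Tkt and Srxn1 rose by 0.90, 0.69 and 0.51. Of the 17 genes on the Nrf2 list, 6 also stand on the conjugation or glutathione lists.

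Of 18 tested genes on a list of uptake carriers, 9 rose and 4 fell between SI1 and SI3, with a median of 0.35. The list also holds carriers that move compounds out of cells, such as Slc47a1, Slc51a and Slc51b, so its counts are not of uptake alone. Over all genes tested, 25.2% were higher and 20.4% lower. The bile acid carriers Slc10a2, Slc51b and Slc51a rose by 5.81, 1.65 and 1.63, and the folate carrier Slc46a1, the cation exporter Slc47a1 and Slc22a13 fell, with -3.97, -1.29 and -1.14. Slc10a2 (15.5, 45.6 and 1749 in SI1, SI2 and SI3) passed the filter on low values only through SI3. Its rise, and its place among the 9 that rose, were therefore fixed by the filter. Of 14 membrane scaffold genes, 6 rose and 5 fell (median 0.25). Pdzk1ip1, the scaffold Pdzk1 and the motor Myo5b rose by 0.64, 0.48 and 0.44, and Slc9a3r2, the radixin gene Rdx and the caveolin gene Cav1 fell, with -1.41, -0.94 and -0.81.

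Of 15 tested genes of subfamilies B, C and G outside the 8, 0 rose and 4 fell between SI1 and SI3, with a median of 0.01. Over all genes tested 25.2% were higher and 20.4% lower, and the counts of this paragraph are to be read against those shares. The largest falls were those of Abcb9, a lysosomal peptide transporter (-1.11), and of the genes for the peptide loading of MHC class I. Of these, Tap2 fell by 1.00 and Tap1 fell by 0.96. Abcg5 and Abcg8, which return plant sterols to the lumen, had differences of 0.10 and -0.14 and did not pass, and were picked after their values were seen. Abcg8 was not flat, however. By limma its SI2 was 0.40 above the mean of the ends (adjusted p = 0.0473), where 2.50% of all genes were higher. It fell by 0.47 from SI2 to SI3 (adjusted p = 0.0145), where 11.9% were lower. Of 11 tested genes of subfamilies A, D, E and F, 3 rose and 3 fell (median 0.06). Abca1, which loads cholesterol onto apolipoprotein, rose by 1.40, Abcd4 by 0.56 and Abca7 by 0.35, while Abca9, Abca8a and Abcf2 fell, with -1.46, -1.18 and -0.45. List genes without a probe set of their own symbol were not analysed here. Limma's adjusted p-values, over all probe sets tested, were under 0.05 for every gene written here as risen or fallen.

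**Figure D4:**
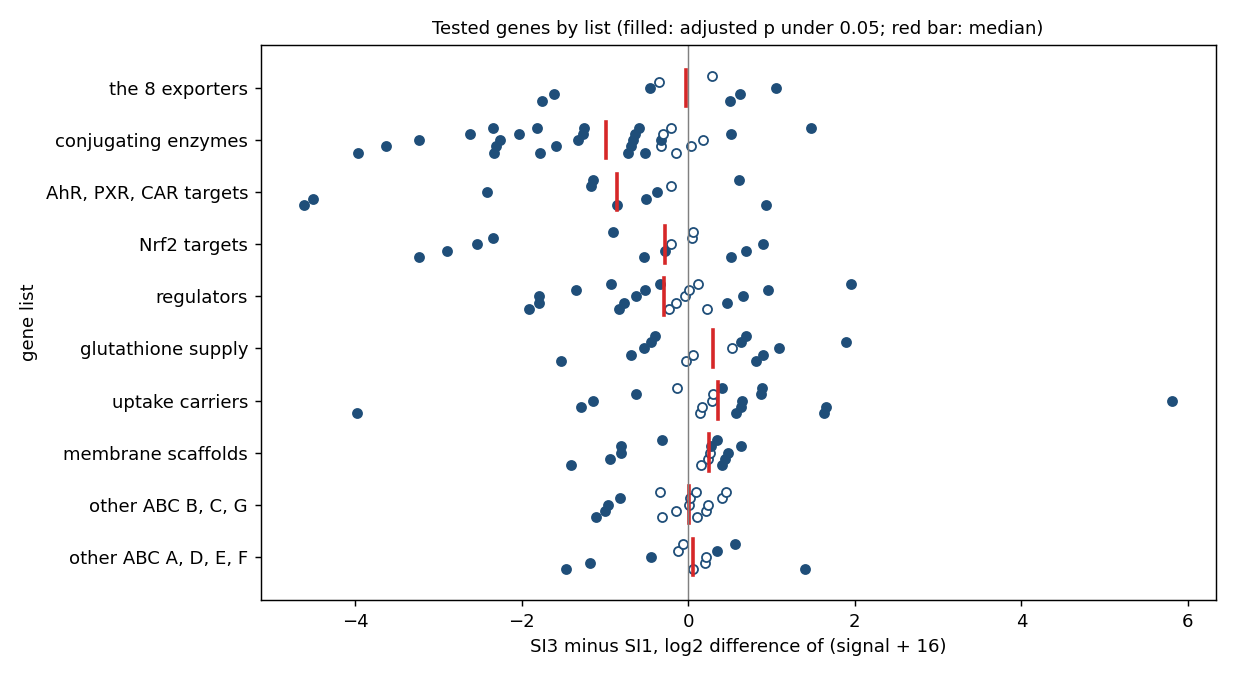
SI3 minus SI1 log2 difference of each tested gene, by list, filled where the adjusted p is under 0.05, with a red bar at the list's median. The 8 exporters lie on both sides of 0 (median -0.03), conjugating enzymes lie mostly left (median -0.98) and uptake carriers mostly right (median 0.35). The list of uptake carriers also holds carriers out of cells, such as Slc47a1, Slc51a and Slc51b.

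Markers of other cells in the scrapings also moved along the gut, beside these results. Between SI3 and SI1, 20.4% of all genes tested were lower and 25.2% higher. Of 9 tested markers of intraepithelial T and NK cells, 9 fell from SI1 to SI3, and the summed signal of the list went from 15317 to 19708 in SI1 to 5018 to 7447 in SI3. Endothelial markers fell in 6 of 8 and rose in 0, with sums from 4062 to 4722 in SI1 and 1014 to 1146 in SI3. Of 10 macrophage and dendritic markers 8 fell and 1 rose (14873 to 15333 in SI1, 9452 to 11222 in SI3), and fibroblast markers fell in 4 of 5 (5584 to 6186, then 1733 to 2174). Goblet markers rose in 6 of 7 (115110 to 136335, then 175926 to 189063), Paneth markers in 4 of 4 (23804 to 30011, then 70605 to 82211) and stem and proliferation markers in 5 of 6 (9460 to 12925, then 15296 to 18257). Exocrine pancreas markers summed to between 29967 and 39020 in SI1 and to between 263 and 478 in SI2. Of those tested, 7 of 7 were lower in SI2, where 7.83% of all genes tested were. Markers such as Cpa1 (4224, 3.2 and 6.63 in SI1, SI2 and SI3) passed the filter on low values only through SI1. Their fall was therefore fixed by the filter. Rbpjl, dim in every segment (14.4, 19.6 and 14.9), was not tested. The labels state that pancreatic tissue was removed from the intestine. The lowest signal of any probe set was 0.1, so a value above 0 is no sign that a marker was expressed. Some markers were near the floor, such as Retnlb (mean signal 5.11) and Pi16 (12.9). The part of any of these cells in the exporter results was not tested.

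The diets can be compared only by single pools. Each diet had 1 array per segment and its 3 segments come from the same mice, so no diet difference has a replicate check. A diet was counted as set apart where its signal + 16 lay at least 1.5-fold above or below both others. This held for 0 of the 8 members in any segment, where some diet was set apart in 4.04%, 4.13% and 5.13% of all genes in SI1, SI2 and SI3. Between the highest and the lowest diet the members spanned 1.03-fold to 1.44-fold, where the median gene spanned 1.18-fold in SI1, 1.17-fold in SI2 and 1.18-fold in SI3. The widest was Abcc5 in SI3, at 511.3 with HF-PO and 741.7 with HF-OO.

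For 3 members the same diet was highest in every segment, and of these only Abcc3 kept the whole order of the 3 diets. Abcb1a was highest with HF-OO in SI1, SI2 and SI3, by 0.21, 0.23 and 0.14 above the mean of the 3 diets on the log2 scale, and so was Abcc6, by 0.16, 0.14 and 0.23. Among all genes tested, 4.40% were highest with HF-OO in all 3 segments. Abcc3 was the reverse, highest with HF-PO in each segment (0.19, 0.16 and 0.20 above the mean) and lowest with HF-OO (-0.11, -0.28 and -0.30), where 4.96% of genes were highest with HF-PO throughout and 3.86% lowest with HF-OO throughout. At a threshold of 1.3-fold, Abcc3 was set apart as low with HF-OO in SI2 and SI3, and no other member was. The share of all genes set apart at 1.3-fold was not counted, so this is not shown to be particular to Abcc3. Its spans there, 1.36-fold in SI2 and 1.42-fold in SI3, were wider than those of 81.6% and 84.1% of genes. Abcg2 was lowest with HF-OO in SI1 and SI2, but its 3 diets were within 1.07-fold in SI3. In SI3, Abcc2 was highest with HF-PO (1984) and lowest with HF-SO (1400), a 1.41-fold span, where in SI1 the span was 1.14-fold in another order.

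**Figure D5:**
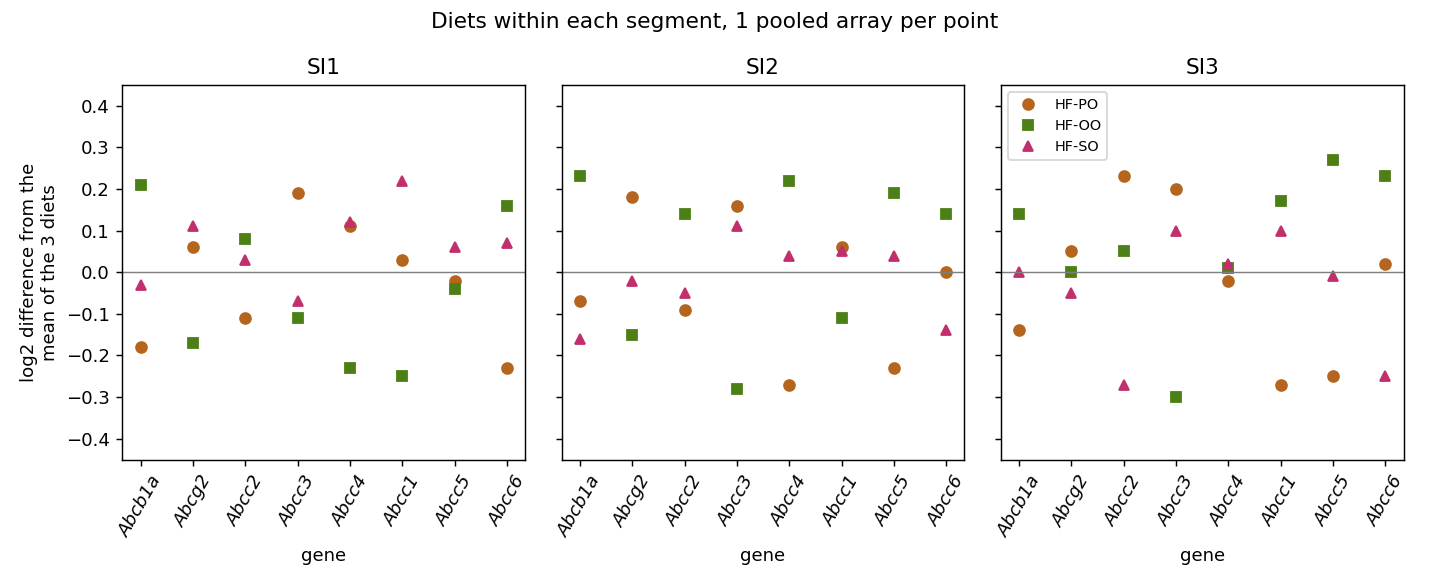
Log2 difference of each diet from the mean of the 3 diets, for the 8 genes in each segment, 1 pooled array per point. HF-OO (squares) is highest for Abcb1a and Abcc6 and lowest for Abcc3 in all 3 panels, and all points lie between -0.30 and 0.27.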

How the data were processed

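RNA was measured on 9 Affymetrix arrays of pooled small-intestinal mucosa. The deposited values are linear signal intensity from MAS5, per the submitters' processing notes, which give no version. With 2% trimmed at either end, every array averaged 500, and this scaling by the authors was kept. Detection calls were not used here. After 64 array controls were left out, 45037 probe sets remained. They were named through the platform annotation, and 34945 had 1 gene symbol, 932 several and 9160 none. Signals were analysed as log2(signal + 16), and the 22519 probe sets with a mean at or above the median of 6.80 were tested.

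Differences between segments were fitted in R 4.3.3 by limma 3.58.1, with segment and diet pool as terms (4 residual degrees of freedom) and variances moderated by eBayes. Two-sided p-values were Benjamini-Hochberg adjusted over all probe sets tested, and under 0.05 counted as passed. The block rests on the design, since 1 set of 6 mice gave all segments of a pool. As a check, departures from the segment mean were correlated across probe sets: r was -0.05 to 0.15 for arrays of 1 pool and -0.13 to 0.05 for arrays of different pools. Fold changes are on the log2(signal + 16) scale and understate changes of dim genes. Diets got no p-value. Counts over all genes use the brightest probe set of each.

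All 8 members are named, with the 3 genes nearest in profile to each that passed the F test with a range of segment means of at least 0.5, and from each list at most the 3 genes with the largest change each way. The members and lists were chosen with earlier results of these data known. The model was tested on simulated data. Alternatives were other pseudocounts, scalings, filters and probe set rules, no block, and each pool left out. Tables and figures were made in Python 3.11.15.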

Additional observations from a re-analysis of the deposited data

Results flagged for a closer look

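The step from SI1 to SI2 went up in some pools and down in others for 4 members, none of which passed the test for that step. With 1 array per pool and segment the difference between pools was not tested. Abcc4 had 0.31 in the HF-OO pool and -0.52 in the HF-PO pool, a gap of 0.84, with -0.21 in the HF-SO pool. Abcc5 had 0.24 in the HF-OO pool and -0.20 in the HF-PO pool, a gap of 0.44. Abcc1 had 0.25 in the HF-OO pool and -0.07 in the HF-SO pool, a gap of 0.32. Abcg2 had 0.07 in the HF-PO pool and -0.19 in the HF-SO pool, a gap of 0.26.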

How the results depend on the processing

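No member's difference that passed changed sign under any alternative run. Differences that did not pass changed sign in 6 cases and passed in none of them. From SI1 to SI2, Abcc5 went from 0.01 to -0.01 after quantile normalization and -0.02 with arrays centred on their medians, and with a pool left out it ranged from -0.11 (HF-OO) to 0.11 (HF-PO). For the same step with a pool left out, Abcc4 (-0.14 with all) ranged from -0.37 without the HF-OO pool to 0.05 without the HF-PO pool, and Abcg2 (-0.05 with all) from -0.11 without the HF-PO pool to 0.02 without the HF-SO pool. For SI2 against the mean of the ends, Abcc4 (0.09 with all) ranged from -0.08 without the HF-OO pool to 0.25 without the HF-PO pool. From SI1 to SI3, the calls of Abcb1a, Abcg2, Abcc2 and Abcc3 passed under every alternative, and so did both single steps of Abcc3. For SI2 against SI1, the 2 members higher became 1 with a pseudocount of 1, after quantile normalization, with arrays centred on their medians, with the upper-quartile filter (which leaves the dim members untested) and without the replicate block, and 0 with no filter. The 2 lower became 1 with no filter. For SI3 against SI2, the 2 members higher became 1 with no filter, without the replicate block and on the mean over all probe sets of a gene. For SI2 against the mean of the ends, the 1 member higher became 0 with no filter and with the upper-quartile filter, and the 0 lower became 1 with that filter and with a pseudocount of 64. Without a filter, limma called 604 probe sets for SI2 against SI1 (3375 with it), 1681 for SI3 against SI2 (4787), 77 for SI2 against the ends (838; 1572 with the upper-quartile filter) and 4666 by the F test (9154). Without a filter, 7 calls of members no longer passed, among them SI3 against SI1 for Abcc1 (adjusted p = 0.111) and Abcc4 (0.137) and the middle peak of Abcc6 (0.166). At 1.3-fold, 1 member in SI2 and 1 in SI3 had a diet set apart, and the share over all genes was not counted at that threshold.

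Leaving out a pool leaves 2 residual degrees of freedom. Probe sets called then were 5551 to 7581 for SI3 against SI1 (9969 with all pools), 537 to 811 for SI2 against SI1, 1317 to 2394 for SI3 against SI2, 54 to 124 for SI2 against the ends and 3680 to 5769 by the F test. Members called were 0 higher and 1 lower for SI2 against SI1, 0 to 1 higher and 1 to 3 lower for SI3 against SI2, 0 higher for SI2 against the ends and 3 to 5 by the F test. The shares of all genes called each way were not counted with a pool left out. These member counts can be set only beside the counts of probe sets above, out of 22519 tested. The number of arrays limits the precision.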
